A study of Mus musculus with 11 samples.

Results

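Goblet cells are the mucus-secreting cells of the intestinal epithelium, and 10 genes that carry out or direct their work were followed in mouse intestinal organoids: the mucus and secretory products Muc2, Fcgbp, Clca1, Zg16, Agr2, Tff3 and Spink4, and the lineage factors Atoh1, Gfi1 and Spdef. The genes were taken by name, and each was found under its Ensembl identifier among the 37310 genes counted. Goblet, Paneth, enteroendocrine and tuft cells arise when a crypt cell escapes Notch signalling. Such a cell can then express the transcription factor Atoh1, which is required for the secretory lineages, while its neighbours remain absorptive. Gfi1 and Spdef act below Atoh1 and favour goblet and Paneth fates and goblet maturation. Mature goblet cells fold very large mucins in the endoplasmic reticulum, decorate them with O-linked sugars and release them as the gel that covers the epithelium.

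The study sequenced RNA of organoids, which are self-organising epithelial cultures, from crypts of mice that all carried the Lgr5-EGFP-IRES-creERT2 stem cell reporter. They had been grown in IntestiCult medium with Matrigel. Late libraries came from passages 11, 12 and 13 of mouse_285 and of mouse_283 (n = 6), and early libraries from passages 2 and 4 of mouse_285 and passages 2, 3 and 4 of mouse_283 (n = 5). The labels name mice aged 4 and 24 months without tying an age to either animal, so ages were not compared. There was 1 library per animal and passage, and the labels do not say whether the passages of an animal were 1 continued culture. The p-values therefore measure the spread between these libraries from 2 animals and not between animals.

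Each library held 15114132 to 28949911 reads in genes. The labels give small intestine as the tissue, although the protocol also mentions colon. Paneth cell markers summed to 842 to 2924 CPM (read counts scaled to library size after TMM normalisation). Retnlb and Car1, which are mainly expressed in the colon, had no read in any library. Aqp8, from the same list of gastric and colonic markers as Car1, was at 0.34 to 1.37 CPM in early libraries and 0 to 0.25 CPM in late libraries. The leukocyte gene Ptprc stayed at or below 0.0326 CPM, whereas the immune markers Itgam and Cd68 were at 3.4 to 13.5 and 1.56 to 7.5 CPM. A count of 3 reads, taken as the limit of detection, corresponds to 0.104 to 0.198 CPM and covers counting error only. Expression followed the GC content of genes in passages 3 and 4 of mouse_283, with slopes of 0.974 and 0.778 log2 units per 10 percentage points of GC, against -0.407 to 0.199 in the other 9 libraries. Both of these libraries belong to the early group, so every comparison below was also made without them and with a correction for GC content and transcript length. No label gives a batch for any library.

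Across all 11 libraries, the order of the genes per unit of transcript length was led by secreted products. The median was 1230 CPM per kb for Tff3, 935 for Spink4, 420 for Fcgbp and 119 for Agr2. It was 24.8 CPM per kb for Zg16, 10.3 for Spdef, 3.10 for Atoh1, 3.02 for Clca1 and 0.769 for Gfi1. The library ranges overlapped between Tff3 and Spink4, between Agr2 and Zg16, between Zg16 and Spdef, between Atoh1 and Clca1, and between Clca1 and Gfi1. Those of Spink4 and Fcgbp (843 to 2140 and 207 to 692 CPM per kb), of Fcgbp and Agr2 (lowest 207, highest 183) and of Spdef and Atoh1 (lowest 7.57, highest 4.59) did not overlap. Muc2 was left out of this order because its annotated transcript models are fragments of 2.93 kb at most. All further values are normalised CPM of a gene and are compared between libraries only.

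No difference between late and early passages passed the test in any of the 10 genes. In edgeR's quasi-likelihood test with the animal in the model, 0 of 10 passed an adjusted p of 0.05, against 3.05% of the 14172 genes tested, and 2 of 10 had an unadjusted p under 0.05, against 23.6% of all genes. DESeq2 called 0 of 10 as well. Without passages 3 and 4 of mouse_283 edgeR called 0 of 10 members and 4.76% of all genes, and with the GC and length correction 0 of 10 members and 5.91% of all genes. The 10 log2 changes had a median of -0.15, against -0.02 over all genes tested, and 6 were negative. Late and early libraries overlapped for all 10 genes, and 5.72% of all tested genes had no overlap. Between the animals 0 of 10 passed, against 0.0776% of all genes, with 1 of 10 at an unadjusted p under 0.05, against 5.15% of all genes. The libraries of the 2 animals overlapped for all 10 genes, and 0.515% of all tested genes had no such overlap. At shares this small a set of 10 genes would often hold none, so these counts of 0 do not set the members apart from all genes. These libraries are bulk samples, in which fewer cells of a type and less RNA per cell cannot be told apart.

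**Figure D1:**
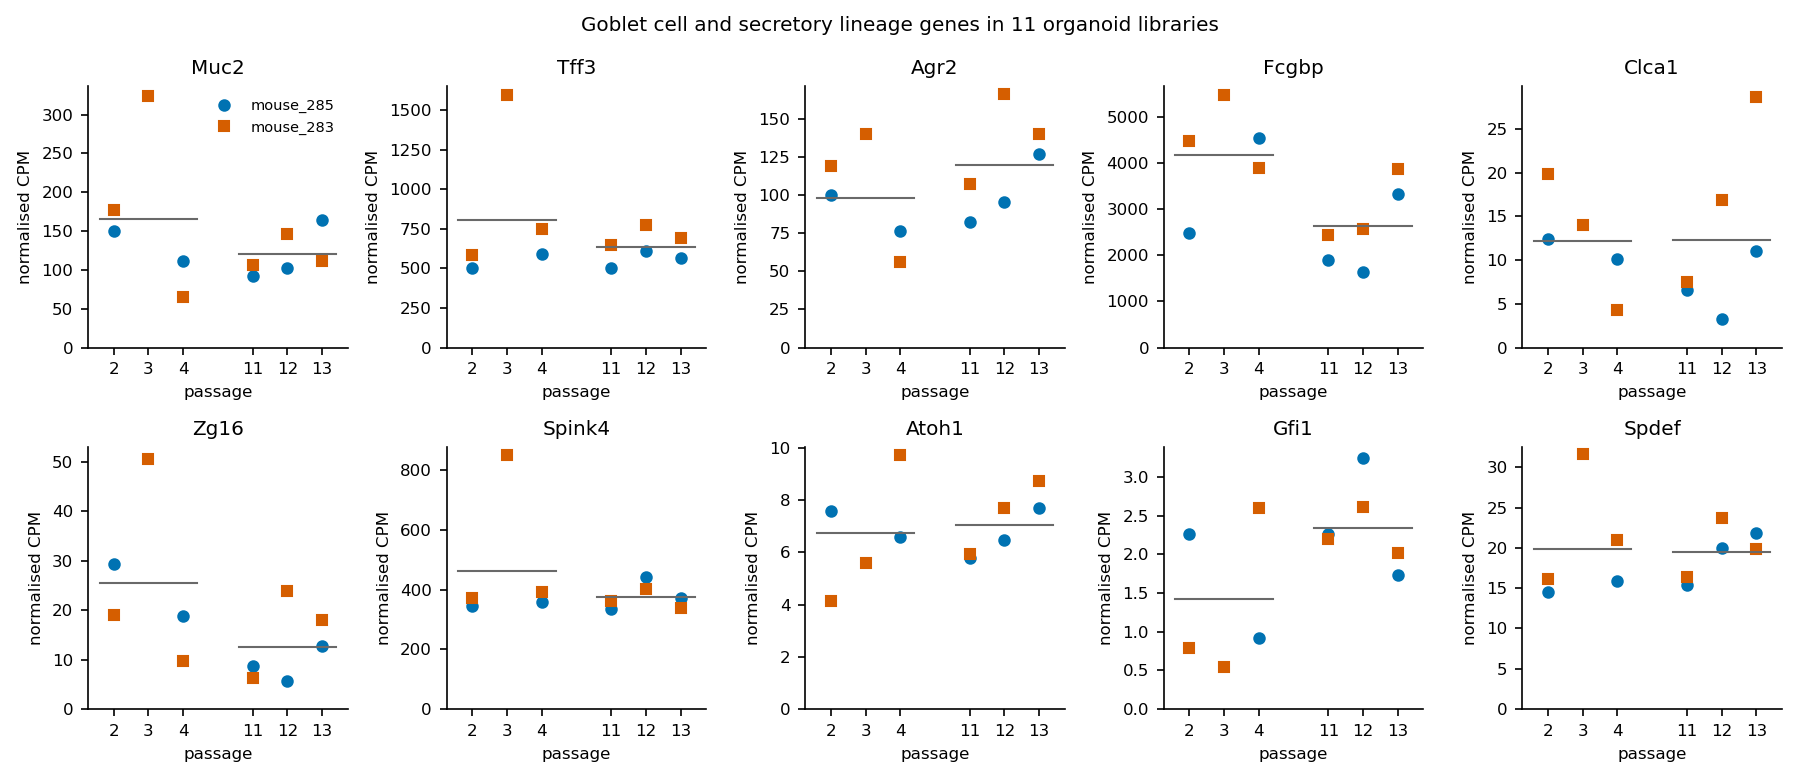
Normalised CPM of the 10 genes (y axis, from 0) by passage (x axis), with blue circles for mouse_285, orange squares for mouse_283 and grey lines for the mean of the early and of the late libraries. The 2 stages overlap in every panel, and passage 3 of mouse_283 is the highest library for 6 of the 10 genes.

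Muc2 encodes the gel-forming mucin that is the main scaffold of intestinal mucus, and Agr2 a protein disulfide isomerase of the endoplasmic reticulum needed to produce it. Fcgbp encodes a large secreted protein that is part of the same gel. The promoters of these genes are shown because Muc2 and Agr2 moved together between libraries, and because Fcgbp had the lowest unadjusted p of the 10 genes between the stages. They are RefSeq windows of 300 bases on GRCm38.p6, from 250 bases before to 50 after the annotated start, all on the plus strand: Muc2 at chr7:141690090-141690389, Agr2 at chr12:35992675-35992974 and Fcgbp at chr7:28070986-28071285. Capitals mark matches to the E-boxes CAGCTG and CAGATG, of the kind that basic helix-loop-helix factors such as Atoh1 bind, and to the TATA-box sequence TATAAA, searched on both strands.
Muc2: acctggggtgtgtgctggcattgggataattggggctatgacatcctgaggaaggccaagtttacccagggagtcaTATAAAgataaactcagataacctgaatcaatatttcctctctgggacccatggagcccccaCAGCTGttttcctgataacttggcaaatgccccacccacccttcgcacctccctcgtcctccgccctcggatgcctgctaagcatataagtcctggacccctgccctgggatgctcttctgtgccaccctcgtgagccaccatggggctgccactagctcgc
Agr2: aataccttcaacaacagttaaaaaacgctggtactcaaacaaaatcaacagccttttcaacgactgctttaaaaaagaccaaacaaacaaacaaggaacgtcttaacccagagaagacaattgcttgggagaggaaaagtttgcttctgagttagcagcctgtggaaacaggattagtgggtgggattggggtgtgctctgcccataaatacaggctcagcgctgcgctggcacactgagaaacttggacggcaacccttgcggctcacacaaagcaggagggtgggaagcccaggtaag
Fcgbp: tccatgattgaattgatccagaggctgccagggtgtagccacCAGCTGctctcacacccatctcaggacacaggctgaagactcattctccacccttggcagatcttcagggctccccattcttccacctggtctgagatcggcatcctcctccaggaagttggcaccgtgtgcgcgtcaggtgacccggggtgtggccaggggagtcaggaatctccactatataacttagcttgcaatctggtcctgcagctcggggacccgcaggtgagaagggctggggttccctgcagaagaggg
The E-box CAGCTG was present once in the Muc2 window and once in the Fcgbp window, that is in 2 of the 6 members with a RefSeq window, against 16.3% of the 32851 windows of this length. CAGATG was in none of the members' windows, against 17.2% of all windows. TATAAA was in the Muc2 window alone among the members, with its first base 174 bases before the start, against 13.6% of all windows. Only these exact letters were searched, so related stretches nearer to the start, such as tatataa in Fcgbp and atataag in Muc2, were not marked. None of the 3 sequences was present in the Agr2 window. A match is a description of the letters and does not show binding.

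Among the structural mucus genes, Muc2 and Fcgbp had lower late than early means without passing the test. Muc2 had 91.7, 102.4 and 164.4 CPM in late passages of mouse_285 and 106.3, 146.4 and 111.8 CPM in late passages of mouse_283. Its early values were 149.6 and 111.0 CPM in mouse_285 and 176.8, 323.9 and 65.0 CPM at passages 2, 3 and 4 of mouse_283. The highest and the lowest Muc2 libraries of the study were thus successive early passages of 1 animal, and all late libraries lay between them. The log2 change of Muc2 was -0.41 with a standard error of 0.33 (95% interval -1.13 to 0.31, edgeR adjusted p = 0.430), and it was -0.04 without passage 3 of mouse_283 (edgeR adjusted p = 0.945) and -0.60 without passage 4 of mouse_283 (edgeR adjusted p = 0.232).

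Fcgbp averaged 2630 ± 848 CPM in late libraries (SD, n = 6) and 4183 ± 1102 CPM in early libraries (SD, n = 5). Late libraries ran from 1642 to 3883 CPM with a median of 2510, and the early ones were 2496 and 4558 CPM in mouse_285 and 4489, 5484 and 3890 CPM in mouse_283. Only passage 2 of mouse_285 lay inside the late range among the early libraries. The log2 change was -0.63 ± 0.24 (SE; 95% interval -1.15 to -0.11), with an unadjusted p of 0.0212 and an edgeR adjusted p of 0.152. It was -0.61 without passages 3 and 4 of mouse_283 (edgeR adjusted p = 0.175) and -0.37 with the GC and length correction (edgeR adjusted p = 0.243). Fcgbp had the lowest unadjusted p of the 10 genes, yet its adjusted p stayed between 0.0576 and 0.405 over all 17 alternative settings.

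Zg16 encodes a lectin that binds the walls of Gram-positive bacteria, and it had the largest late-to-early difference of the 10 genes. It had 8.71, 5.68 and 12.7 CPM in late passages of mouse_285 and 6.27, 23.8 and 18.0 CPM in late passages of mouse_283, against 29.3 and 18.7 CPM in early passages of mouse_285 and 19.0, 50.6 and 9.74 CPM in early passages of mouse_283. In mouse_285 all 3 late libraries were below both early ones, while in mouse_283 the stages overlapped. The log2 change was -1.03 ± 0.43 (SE; 95% interval -1.96 to -0.10), with an unadjusted p of 0.0332 and an edgeR adjusted p of 0.183. Zg16 was called when no filter on low counts was applied, the one alternative in which any of the 10 genes was called late against early (edgeR adjusted p = 0.00446). Without the filter 1819 of all genes were called late against early, against 432 with it. The log2 change of Zg16 over the 17 alternatives ran from -1.27 to -0.65, and its adjusted p from 0.00446 to 0.449.

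Clca1, a secreted metalloprotease that processes Muc2 in the mucus, varied 8.83-fold between its highest and lowest library, with similar means at both stages. It averaged 12.3 ± 9.25 CPM in late libraries (SD, n = 6) and 12.2 ± 5.66 CPM in early libraries (SD, n = 5). The log2 change of -0.05 had a wide 95% interval, -1.04 to 0.94 (edgeR adjusted p = 0.950). Its extremes were both late, 3.24 CPM at passage 12 of mouse_285 and 28.7 CPM at passage 13 of mouse_283.

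Agr2 had a log2 change of 0.31 ± 0.23 (SE; edgeR adjusted p = 0.402), the only positive one among the mucus products in all libraries. It was 0.21 without passages 3 and 4 of mouse_283, where 3 of 7 products were positive, and 0.10 with the GC and length correction, where 2 of 7 were. It had 82.2, 95.8 and 127.1 CPM in late passages of mouse_285 and 107.6, 166.2 and 140.0 CPM in late passages of mouse_283, against 100.1 and 76.6 CPM in early passages of mouse_285 and 119.0, 140.4 and 56.0 CPM in early passages of mouse_283. Of the 5 early libraries, 3 lay inside the late range. Its lowest library, passage 4 of mouse_283, was also the lowest for Muc2.

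Tff3 encodes a trefoil peptide released with mucus that takes part in epithelial repair, and Spink4 a Kazal-type protease inhibitor of goblet cells. Tff3 averaged 633 ± 95.5 CPM in late libraries (SD, n = 6) and 805 ± 451 CPM in early libraries (SD, n = 5). Spink4 averaged 376 ± 41.0 CPM in late libraries and 463 ± 217 CPM in early libraries. The large early spread came with 1 library: Tff3 was 1598 CPM and Spink4 851 CPM at passage 3 of mouse_283, against at most 774 and 443 CPM in any other library. The log2 changes were -0.25 for Tff3 (SE 0.24, edgeR adjusted p = 0.511) and -0.25 for Spink4 (SE 0.24, edgeR adjusted p = 0.497). Without passages 3 and 4 of mouse_283 both signs turned, to 0.13 for Tff3 (95% interval -0.16 to 0.41) and 0.08 for Spink4 (95% interval -0.20 to 0.36). With the GC and length correction Tff3 was at 0.01 and Spink4 at -0.13.

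The 3 lineage factors were low but above the limit of detection in every library. Atoh1 had 5.78, 6.49 and 7.69 CPM in late passages of mouse_285 and 5.94, 7.70 and 8.74 CPM in late passages of mouse_283, against 7.58 and 6.58 CPM in early passages of mouse_285 and 4.14, 5.61 and 9.74 CPM in early passages of mouse_283. The late values lay wholly inside the early range. The log2 change was 0.07 ± 0.24 (SE; 95% interval -0.45 to 0.59, edgeR adjusted p = 0.870).

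Gfi1, a zinc finger repressor that favours goblet and Paneth over enteroendocrine fate, had the lowest level per unit of transcript length. It had 2.26, 3.24 and 1.74 CPM in late passages of mouse_285 and 2.20, 2.61 and 2.02 CPM in late passages of mouse_283, against 2.26 and 0.92 CPM in early passages of mouse_285 and 0.79, 0.54 and 2.60 CPM in early passages of mouse_283. The early libraries split, with 3 below every late library and 2 inside the late range. Those 3 rest on few reads, 13 and 10 at passages 2 and 3 of mouse_283 and 18 at passage 4 of mouse_285. Its log2 change of 0.69 ± 0.41 (SE; 95% interval -0.19 to 1.57, edgeR adjusted p = 0.289) was the largest positive one. It was 0.91 without passages 3 and 4 of mouse_283 (edgeR adjusted p = 0.195) and 1.08 with the GC and length correction (edgeR adjusted p = 0.125).

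Spdef, an ETS factor of goblet and Paneth cell maturation, varied least, 2.17-fold between its highest and lowest library. It averaged 19.5 ± 3.14 CPM in late libraries (SD, n = 6) and 19.9 ± 7.01 CPM in early libraries (SD, n = 5), with 31.6 CPM at passage 3 of mouse_283 and at most 23.6 CPM elsewhere. The log2 change was 0.03 ± 0.22 (SE; edgeR adjusted p = 0.941). With the GC and length correction it was 0.48 (95% interval 0.12 to 0.83, unadjusted p 0.0129, edgeR adjusted p = 0.0974).

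**Figure D2:**
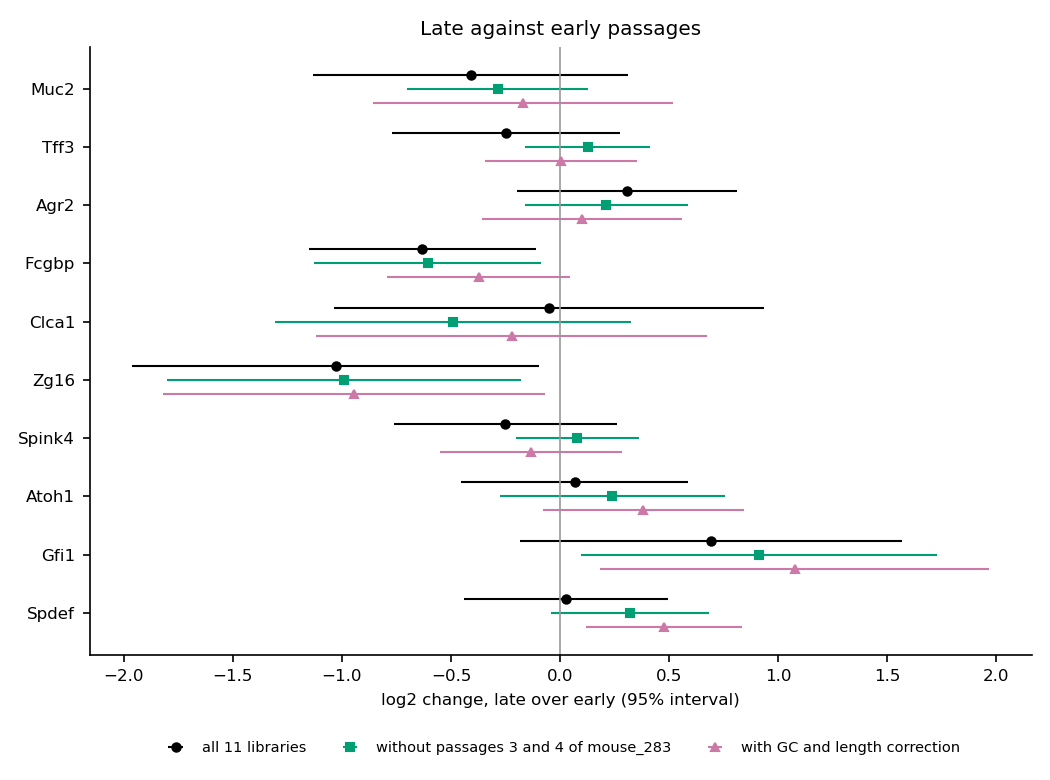
Log2 change, late over early (x axis), of each gene (y axis) with its 95% interval, from all 11 libraries (black circles), without passages 3 and 4 of mouse_283 (green squares) and with the GC and length correction (pink triangles). Muc2, Fcgbp, Clca1 and Zg16 lie below 0 in all 3 fits, and Agr2, Atoh1, Gfi1 and Spdef above it. Tff3 and Spink4 change sign, and no gene passed the adjusted threshold in any of the 3 fits.

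The stage difference was then set out within each animal, with 3 late and 2 early libraries of mouse_285 and 3 late and 3 early libraries of mouse_283. No member was called in either, where 0.00% of all tested genes were called in mouse_285 and 1.42% in mouse_283, and at an unadjusted p under 0.05 there was no member in either animal, against 5.38% of all genes in mouse_285 and 18.8% in mouse_283. Without passages 3 and 4 of mouse_283, which leaves a single early library of that animal assumed to vary like the others, 2.17% of all genes were called in mouse_285 and 6.37% in mouse_283, again with no member. At an unadjusted p under 0.05 that fit had Zg16 in mouse_285, against 18.7% of all genes, and Atoh1 (0.85) and Gfi1 (1.53) in mouse_283, against 23.0% of all genes. With the GC and length correction 0.197% of all genes and no member were called in mouse_285 and 3.55% and no member in mouse_283. Zg16 and Spdef had an unadjusted p under 0.05 in mouse_285, against 8.26% of all genes, and Atoh1 and Gfi1 in mouse_283, against 24.8% of all genes. In all libraries Zg16 was at -1.41 ± 0.66 in mouse_285 and -0.72 ± 0.59 in mouse_283 (log2, SE), and Fcgbp at -0.62 ± 0.38 in mouse_285 and -0.64 ± 0.34 in mouse_283. Clca1 was at -0.70 ± 0.66 in mouse_285 and 0.48 ± 0.60 in mouse_283, and without passages 3 and 4 of mouse_283 at -0.69 in mouse_285 and -0.17 in mouse_283. The test of the difference itself, the interaction of stage and animal, gave -1.17 for Clca1 (95% interval -3.12 to 0.78, edgeR adjusted p = 0.990), or -0.53 without passages 3 and 4 of mouse_283, and called 0 of 10 members and 0.00% of all genes. At an unadjusted p under 0.05 the interaction had 302 of all tested genes (2.13%) and none of the members, and DESeq2 called 15 genes and no member. The interaction called 0.0342% of all genes and no member without passages 3 and 4 of mouse_283, and at an unadjusted p under 0.05 it had 16.8% of all genes and 1 of 10 members, Atoh1 (-0.94, edgeR adjusted p = 0.275). With passage 2 of mouse_283 left out, Tff3 and Spink4 passed as lower in late libraries of mouse_283, at -0.73 (edgeR adjusted p = 0.0293) and -0.75 (edgeR adjusted p = 0.0271). That fit sets the 3 late libraries against passages 3 and 4 of mouse_283 alone. Over both animals, 4872 genes were called late against early without passage 2 of mouse_283, against 432 with all libraries. The share of all genes called within mouse_283 in that fit is not given here.

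**Figure D3:**
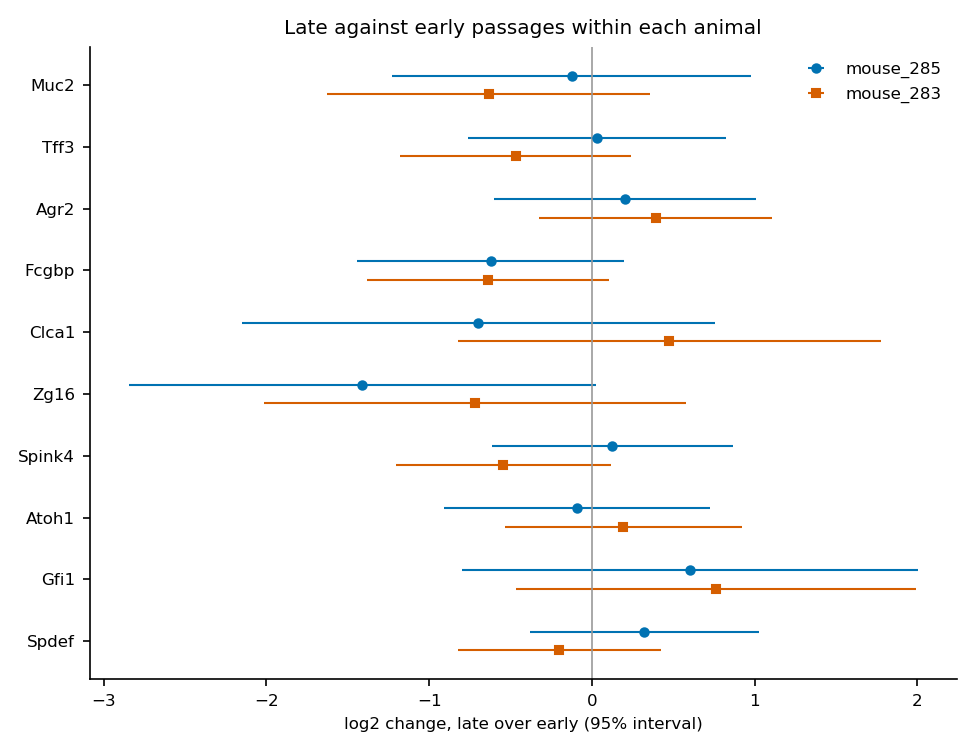
Log2 change, late over early (x axis), of each gene (y axis) within mouse_285 (blue circles) and within mouse_283 (orange squares), with 95% intervals. Every interval of mouse_285 and of mouse_283 includes 0, and those of the 2 animals overlap for each gene.

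Between the animals, all 7 mucus products had lower fitted levels in mouse_285 than in mouse_283 in all libraries, as had 7126 of the 14172 genes tested, and none of the 7 passed the test. Without passages 3 and 4 of mouse_283, 6 of 7 were lower and Spink4 was at 0.03, and without passage 3 alone Muc2 was at 0.03. Their log2 differences ran from -0.81 for Clca1 to -0.24 for Spink4, with a median of -0.38. Over all genes 0.00% were called higher and 0.0776% lower in mouse_285. Tff3 had the lowest p of the 7. It averaged 555 ± 48.6 CPM in mouse_285 (SD, n = 5) and 842 ± 376 CPM in mouse_283 (SD, n = 6), a log2 difference of -0.55 ± 0.24 (SE) with an unadjusted p of 0.0415 and an edgeR adjusted p of 0.891. Without passages 3 and 4 of mouse_283 it was -0.25 (unadjusted p 0.0658), and Clca1 then stood at -1.17 (95% interval -1.95 to -0.39, unadjusted p 0.00633, edgeR adjusted p = 0.203). The lineage factors were at -0.04 for Atoh1, 0.15 for Gfi1 and -0.30 for Spdef, with adjusted p from 0.891 to 0.969 in edgeR.

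Passages 3 and 4 of mouse_283, which shared the GC trend, were on opposite sides of the median library in 6 of the 10 genes and both above it in the other 4, Tff3, Spdef, Fcgbp and Spink4. Passage 3 was the highest of all libraries for Muc2, Fcgbp, Zg16, Tff3, Spink4 and Spdef, at 1.74 to 3.30 times the median of the other 10 libraries, and the lowest for Gfi1. Passage 4 was the lowest for Muc2 and Agr2 and the highest for Atoh1. The summed Paneth cell markers were 1554 CPM at passage 3 and 2924 CPM at passage 4, the highest value in the study, and 842 to 2162 CPM in the other libraries. Itln1 had the highest mean of the genes in that sum, 804 CPM over all libraries, and ran from 494 to 1722 CPM. Summed goblet folding genes were 2790 CPM at passage 3 and 2069 CPM at passage 4, with 1586 to 2046 CPM in the others. What set these libraries apart was not tested.

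The genes were also compared by how they moved between libraries once the mean of each animal and stage had been subtracted, which leaves the variation among libraries of like kind. Over the 11 libraries, which share animals and culture, the 45 pairs had a median Pearson r of 0.37 and a range of -0.71 to 0.96. Tff3 and Spink4 (r = 0.96) and Muc2 and Agr2 (r = 0.95) were the most alike pairs, followed by Tff3 and Spdef (r = 0.89), Agr2 and Zg16 (r = 0.85), Spdef and Spink4 (r = 0.82) and Muc2 and Zg16 (r = 0.82). Without passages 3 and 4 of mouse_283, over 9 libraries, Muc2 and Agr2 stood at 0.93, Tff3 and Spink4 at 0.78, and Agr2 and Zg16 at 0.83. Passage 2 of mouse_283 is then alone in its animal and stage, equals the mean subtracted and adds nothing to the values over 9 libraries. With the GC and length correction these 3 pairs were at 0.95, 0.98 and 0.89. Tff3 and Spdef stood at 0.84 over 9 libraries and 0.57 with the correction, Spdef and Spink4 at 0.59 and 0.44, and Muc2 and Zg16 at 0.68 and 0.85. All the pairs named were lower over 9 libraries than over 11.

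The lineage factors did not share one pattern. Muc2 and Atoh1 had r = -0.43 over 11 libraries and 0.67 over 9, and Agr2 and Atoh1 -0.37 over 11 and 0.85 over 9, so the sign of these values rests on passages 3 and 4 of mouse_283. Gfi1 was negative with all 7 mucus products over 11 libraries, from -0.71 with Muc2 to -0.41 with Tff3. Over 9 libraries its r was 0.08 with Muc2 and -0.87 with Fcgbp. These values are descriptions of few libraries.

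**Figure D4:**
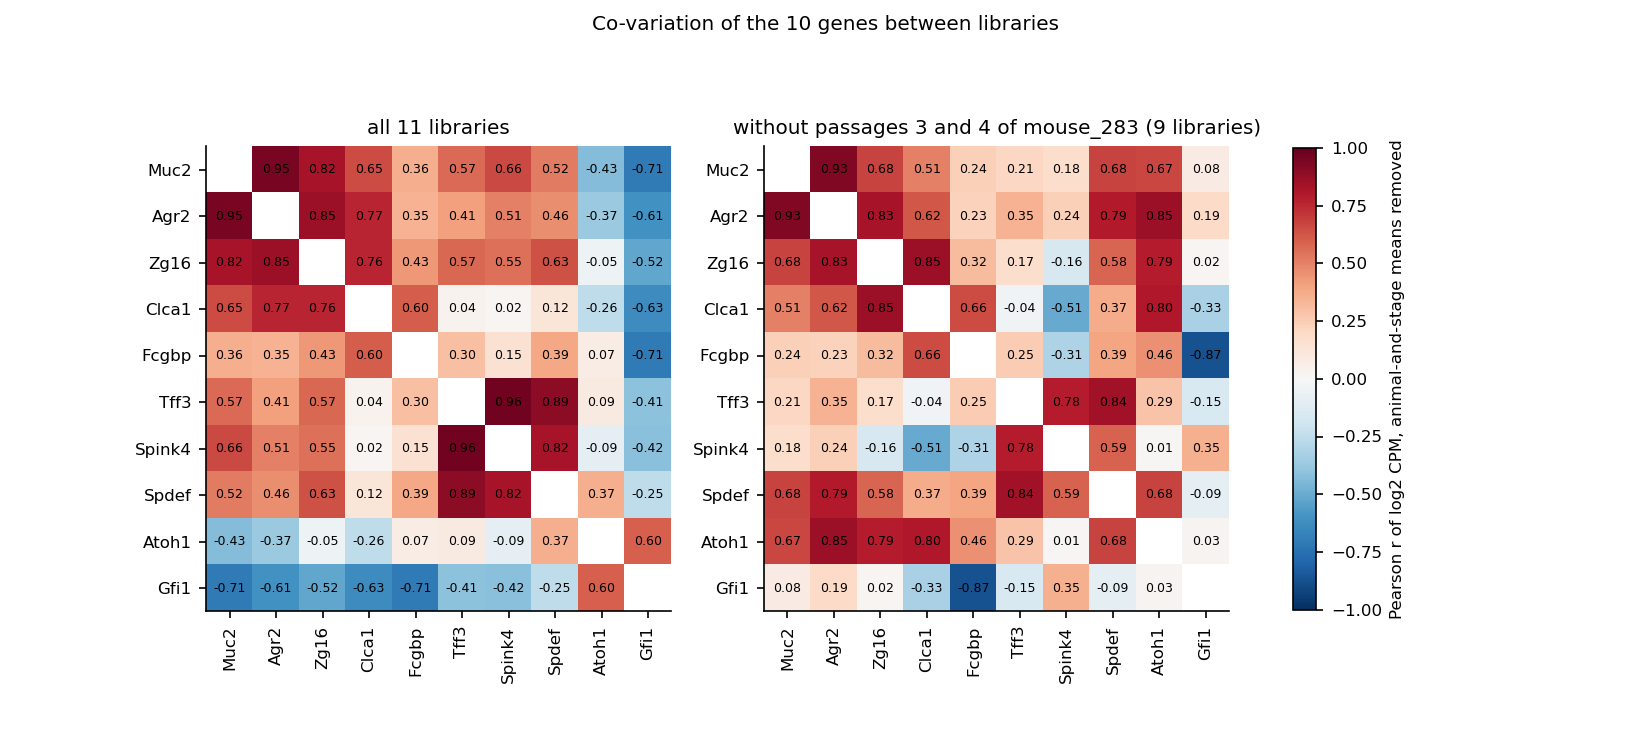
Pearson r (colour and printed value, scale -1 to 1) between the log2 CPM of each pair of genes with animal-and-stage means removed, over all 11 libraries (left) and without passages 3 and 4 of mouse_283 (right, 9 libraries). Muc2 with Agr2 and Tff3 with Spink4 are high in both panels, at 0.95 and 0.93 and at 0.96 and 0.78, whereas Atoh1 is negative with Muc2, Agr2, Zg16, Clca1 and Spink4 on the left and positive with them on the right.

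Among 9948 genes with a symbol and a mean of at least 5 CPM, the 5 most like Muc2 in this measure over 11 libraries were Ceacam18 (r = 0.96), Agr2 (0.95), Nmnat1 (0.95), Akr1c19 (0.95) and Tmem251 (0.95). With the GC and length correction Ceacam18, Agr2 and Nmnat1 were at 0.95, 0.95 and 0.91, and Akr1c19 and Tmem251 at 0.32 and 0.18. Without passages 3 and 4 of mouse_283, over 9 libraries, Ceacam18 was at 0.82, Agr2 and Nmnat1 at 0.93, Akr1c19 at 0.92 and Tmem251 at 0.95. The 5 most like Atoh1 were Dph2 (0.96), Inafm2 (0.96), Galnt12 (0.95), Hnrnpab (0.94) and Eme1 (0.93). Galnt12 encodes an enzyme that starts mucin-type O-glycans. With the correction these 5 ran from 0.67 for Inafm2 to 0.90 for Dph2. Over the 9 libraries they ran from 0.77 for Hnrnpab to 0.97 for Inafm2.

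Gene lists from the same steps of goblet cell biology were counted in the same fit, in which 0.706% of all tested genes rose and 2.34% fell. Of 22 tested genes among 25 further goblet products and markers, 0 rose and 0 fell late against early by edgeR's adjusted p, with 5 of 22 at an unadjusted p under 0.05. Of 22 tested genes among 24 Notch pathway and lineage-choice genes, 0 rose and 0 fell, with 2 of 22 at an unadjusted p under 0.05. Hes1, a Notch target that represses Atoh1, was at a log2 change of -0.02 ± 0.27 (SE), and Dll1, a Notch ligand of secretory precursors, at 0.16 ± 0.15 (SE). Of 18 genes for secretory protein folding and transport, 0 rose and 1, Kdelr3, fell. Of 24 tested genes among 25 for mucin-type glycosylation, 2 rose, Gcnt3 and Fut2, and 0 fell. Among the uncalled genes of these lists, Guca2a, Ccl9 and Dnajc10 had no overlap between late and early libraries. Over all tested genes that share was 5.72%. When passages 3 and 4 of mouse_283 were left out, the genes that rose were 2 of 22 further goblet products, 4 of 22 lineage-choice genes, 1 of 18 folding genes and 2 of 24 glycosylation genes, against 1.37% of all genes. With the GC and length correction they were 1 of 22, 3 of 22, 5 of 18 and 2 of 24, against 2.92% of all genes. In these lists 1 folding gene fell in each of the 2 fits.

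Gcnt3 encodes the enzyme that makes core 2 and core 4 branches on mucin O-glycans. It had 49.4, 46.3 and 51.5 CPM in late passages of mouse_285 and 92.4, 129.7 and 135.2 CPM in late passages of mouse_283, against 29.9 and 20.6 CPM in early passages of mouse_285 and 36.6, 26.5 and 16.7 CPM in early passages of mouse_283. Every late library was above every early one, and the late libraries of mouse_283 were above those of mouse_285. The log2 change was 1.62 ± 0.28 (SE; edgeR adjusted p = 0.0104), and it passed in all 17 alternatives, with values from 1.24 to 1.85 (adjusted p from 1.05e-09 to 0.0331).

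Fut2, the fucosyltransferase that adds terminal fucose to secreted mucins, had 6.07, 4.68 and 5.52 CPM in late passages of mouse_285 and 8.38, 11.8 and 11.8 CPM in late passages of mouse_283. Its early values were 3.62 and 2.35 CPM in mouse_285 and 4.57, 3.50 and 2.74 CPM in mouse_283. The stages did not overlap, by a small margin, and the log2 change was 1.26 ± 0.24 (SE; edgeR adjusted p = 0.0171). The log2 change ran from 1.01 to 1.46 over the 17 alternatives. The call was lost in 3 of them: without passage 12 of mouse_283 the edgeR adjusted p was 0.0508, without passage 13 of mouse_283 it was 0.0551 and without passage 4 of mouse_285 it was 0.0598.

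Kdelr3, a receptor that returns escaped chaperones to the endoplasmic reticulum, averaged 5.19 ± 0.72 CPM in late libraries (SD, n = 6) and 9.23 ± 2.23 CPM in early libraries (SD, n = 5). The late libraries lay between 4.15 and 6.21 CPM and the early ones between 8.04 and 13.2 CPM. The log2 change was -0.81 ± 0.19 (SE; edgeR adjusted p = 0.0430). The call was lost in 10 of 17 alternatives, which were the fit with no filter on low counts, the 6 that left out a late library and those that left out passage 2 or passage 4 of mouse_285 or passage 3 of mouse_283. The adjusted p reached 0.139, and the log2 change ran from -0.87 to -0.62.

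**Figure D5:**
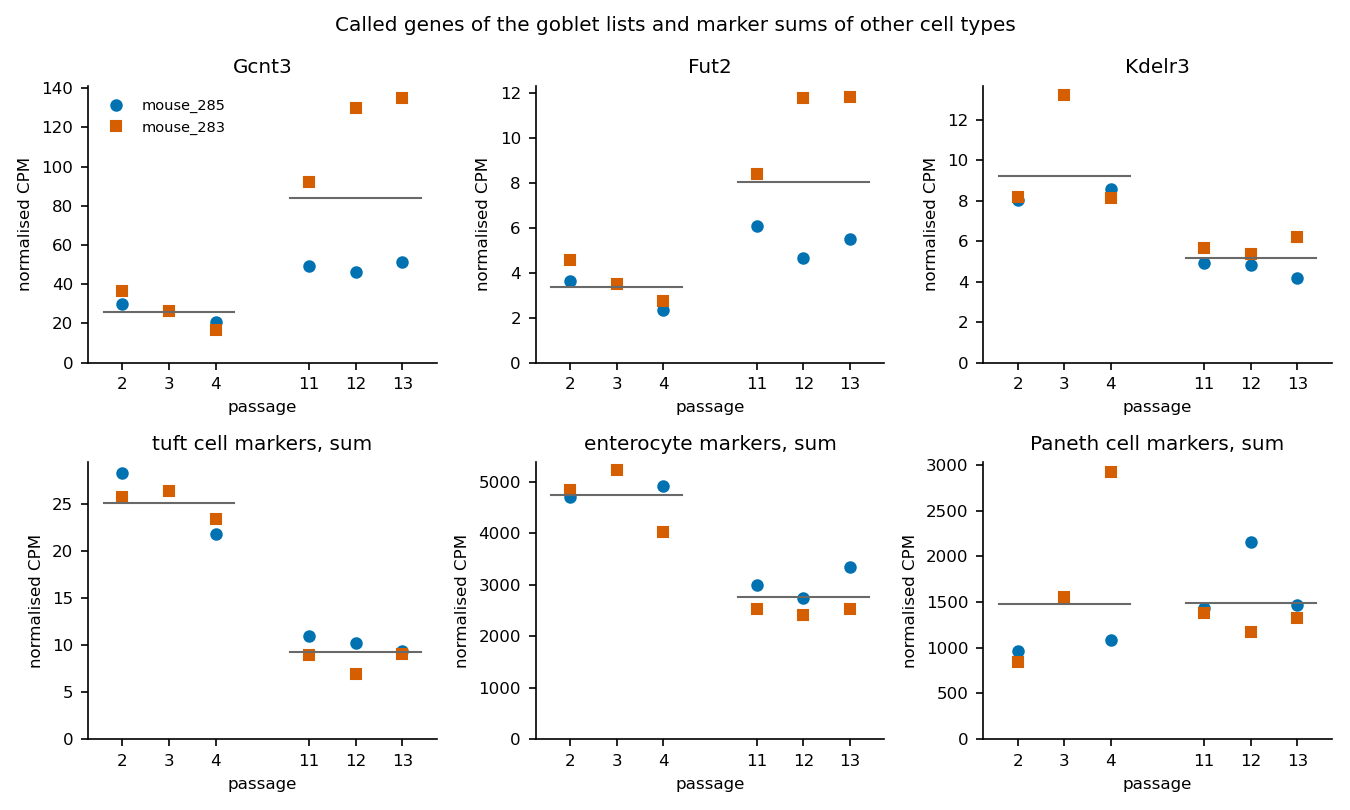
Normalised CPM (y axis, from 0) by passage (x axis) of the 3 called genes Gcnt3, Fut2 and Kdelr3 (top) and of the summed markers of tuft cells, enterocytes and Paneth cells (bottom), with blue circles for mouse_285, orange squares for mouse_283 and grey lines for stage means. Late and early libraries do not overlap for the 3 genes or for the tuft cell and enterocyte sums, and they overlap for the Paneth cell sum. Of all tested genes 5.72% had no overlap of the stages.

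Markers of neighbouring cell types were counted in the same fit, and their difference from the goblet genes was not tested. Of 9 tested tuft cell markers 6 fell and 0 rose (3 fell without passages 3 and 4 of mouse_283), and their sum over 10 genes was 6.98 to 11.0 CPM in late libraries and 21.8 to 28.4 CPM in early libraries. Of 10 enterocyte markers 5 fell and 0 rose, with sums of 2407 to 3349 CPM in late libraries and 4012 to 5228 CPM in early libraries. Of 10 enteroendocrine markers 2 rose and 1 fell, with sums of 717 to 1184 CPM in late libraries and 611 to 1010 CPM in early libraries. Of 8 tested Paneth cell markers 0 rose and 0 fell, with a median log2 change of 0.40 in all libraries. Without passages 3 and 4 of mouse_283 4 of 8 rose, against 1.37% of all genes called higher in that fit, and the median was 1.10. With the GC and length correction 0 of 8 rose and 0 fell, and the median was 0.38. The summed 7 mucus products were 2901 to 5216 CPM in late libraries and 3636 to 8462 CPM in early libraries. Most of that sum was Fcgbp alone, at 1642 to 3883 CPM in late libraries and 2496 to 5484 CPM in early libraries. The summed 3 lineage factors were 23.4 to 33.9 CPM in late libraries and 21.1 to 37.7 CPM in early libraries. Immune markers summed to 7.74 to 13.96 CPM in late libraries and 10.2 to 23.0 CPM in early libraries, and mesenchyme markers to 10.2 to 18.7 CPM in late libraries and 12.5 to 19.8 CPM in early libraries. The part of these other cell types in the values of the 10 genes was not tested.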

How the data were processed

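Bulk RNA was sequenced from 11 organoid libraries. The authors deposited unnormalised read counts per gene for each library, and per the submitters' processing notes reads had been trimmed with Trimmomatic and handled with STAR on mouse build mm9; versions and the annotation release are not given in the sources used here. The unstranded column of counts was used, since the strand columns held near equal shares. Reads matching several places or no gene stayed out of library sizes; they made up 5.92% to 8.78% and 3.77% to 11.7% of the library's reads. Without strand, a gene and an antisense partner cannot be told apart. The passage in the tables' names was higher by 1 than in the titles in all 11 cases, and titles were used.

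Identifiers were matched to symbols with GENCODE names (32620 of 37310). Analyses used R 4.3.3, edgeR 4.0.16 (TMM, filterByExpr, quasi-likelihood F test with animal and stage, two-sided, Benjamini-Hochberg threshold 0.05) and DESeq2 1.42.0 as an alternative. The animal stood in the model as the block, since libraries of the same animal share it. The standard error was the log2 change over the square root of F. CPM were TMM-normalised, and log2 CPM used a prior count of 2. GC content and transcript length, from a later annotation, gave spline offsets with 5 degrees of freedom for 13709 genes. Only the edgeR fit of late against early was tested on simulated counts. These had independent libraries, the same dispersion for all genes, no animal effect and no GC trend.

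Members, lists and settings were chosen with earlier results of these data known. Named were all 10 members in every library, up to 4 called genes per goblet list late against early and up to 2 between animals (there were none), and the 5 genes most like Muc2 and most like Atoh1. Other genes named were chosen after their values were seen.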

Additional observations from a re-analysis of the deposited data

Results flagged for a closer look

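In 3 cases a library stood far from the others of its group by Dixon's test, and all came from passage 3 of mouse_283. Tff3 was at 1598 CPM there, against 746 CPM in the next early library. Spink4 was at 850.9 CPM, against 391 CPM in the next early library. Kdelr3 was at 13.21 CPM, against 8.57 CPM in the next early library. The 10 members and the 3 called list genes gave 26 groups to test, and chance flags about 1 in 20. No late library was flagged, and no member differed between the animals in its stage difference by a test.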

How the results depend on the processing

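The count of members called late against early was 0 in 16 of 17 alternatives and 1 without a filter on low counts (Zg16). The count of all genes called late against early was 432 (100 higher, 332 lower). It was 416 with other size factors, 400 without the replicate block (the animal), 1250 with DESeq2 (447 higher, 803 lower), 1819 without a filter (1053 higher, 766 lower), 697 without passages 3 and 4 of mouse_283 and 810 with the GC and length correction (400 higher, 410 lower). Leaving out 1 library gave 173 to 4872 calls, with 4872 (2596 higher, 2276 lower) in the fit without passage 2 of mouse_283. For mouse_285 against mouse_283 the count of 11 became 118, 207, 107 and 27 under DESeq2, no filter, no passages 3 and 4 of mouse_283 and the correction, and 3 to 74 with 1 library left out. For the interaction the count of 0 became 15, 65, 5 and 1 under the same settings, and 0 to 2314 with 1 library left out. The causes were not tested. Of 790 alternative values of the members, 724 kept direction and side of the threshold, 3 passed it and 63 changed sign, all 63 uncalled. Log2 signs that changed late against early were Tff3 (0.126 without passages 3 and 4 of mouse_283, 0.00654 corrected), Clca1 (0.0094 without a filter, 0.023 without the block), Spink4 (0.0792 without those passages) and Spdef (-0.0254 without the block). Between animals they were Spink4 (0.0253) and Atoh1 (0.107) without those passages, and Atoh1 corrected (0.186). In the interaction they were Tff3 (-0.24) and Fcgbp (-0.0279) without those passages, and Fcgbp without a filter (-0.00237) and corrected (-0.0903). Within mouse_283 they were Tff3 (0.275), Clca1 (-0.166) and Spdef (0.315) without those passages and Spdef corrected (0.405), and within mouse_285 Atoh1 corrected (0.0519). With 1 library left out, late against early ranged from -0.36 to 0.0752 for Tff3, -0.375 to 0.167 for Clca1, -0.336 to 0.0554 for Spink4, -0.0695 to 0.25 for Atoh1 and -0.0501 to 0.227 for Spdef. Between animals it ranged from -0.428 to 0.0294 for Muc2, -0.147 to 0.111 for Atoh1 and -0.105 to 0.495 for Gfi1. In the interaction it ranged from -0.131 to 0.919 for Muc2, -0.0459 to 0.76 for Tff3, -0.453 to 0.114 for Agr2, -0.352 to 0.515 for Fcgbp and -1.17 to 0.625 for Gfi1. Within mouse_283 it ranged from -1.04 to 0.0207 for Muc2, -0.73 to 0.0981 for Tff3, -0.0591 to 0.957 for Clca1, -1.13 to 0.176 for Zg16, -0.048 to 0.611 for Atoh1 and -0.395 to 0.116 for Spdef. Within mouse_285 it ranged from -0.425 to 0.113 for Muc2, -0.0712 to 0.153 for Tff3 and -0.208 to 0.0205 for Atoh1. All 10 members exceeded the detection limit in every library, so depth did not keep any of them from being detected. Gfi1 held only 10 reads at passage 3 of mouse_283.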

Other observations

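Some goblet list genes passed only in alternative fits and were named after their values were seen. Late against early, Klk1, a kallikrein of goblet cells, was at a log2 change of 0.60 (edgeR adjusted p = 0.173) in all libraries, 0.92 (edgeR adjusted p = 0.0177) without passages 3 and 4 of mouse_283 and 0.83 (edgeR adjusted p = 0.0145) with the GC and length correction. Of the lineage-choice genes, Insm1 and Nkx2-2, factors of enteroendocrine differentiation, passed in both of these fits, at 0.87 and 0.92 without passages 3 and 4 of mouse_283 and at 0.87 and 0.96 with the correction. Neurog3, the factor that starts that lineage, was at 1.34 (edgeR adjusted p = 0.00262) without passages 3 and 4 of mouse_283 and at 0.57 (unadjusted p 0.210) in all libraries. Between the animals, Oit1 of the goblet list was at -1.22 (edgeR adjusted p = 0.00333) without those libraries and at -1.14 (edgeR adjusted p = 0.0388) with the correction, lower in mouse_285. With the correction 5 of 18 folding genes were called higher in late libraries, against 0 of 18 without it, while over all genes 2.92% were called higher with it and 0.706% without it; these were Creb3l1, Fkbp11, Pdia5, Sdf2l1 and Dnajc10.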
